A study of Homo sapiens with 5 samples.

Results

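The BCL2 family decides whether a cell opens its outer mitochondrial membrane and dies by apoptosis. Here, 10 of its genes were followed by name in pools of TF-1 clones with and without *MTSS1*, out of 27328 Ensembl genes counted. They were 3 anti-apoptotic genes (*BCL2*, *BCL2L1*, and *MCL1*), the 2 effectors (*BAX* and *BAK1*), and 5 BH3-only genes (*BBC3*, *PMAIP1*, *BCL2L11*, *BID*, and *BAD*). TF-1, derived from a human erythroleukaemia, is an AML line with features of erythroid and myeloid progenitors. All cells carried a lentiviral vector with Cas9, GFP, and an sgRNA, and had been sorted for GFP and cloned from single cells. There were 2 control libraries, sgCtrl pools 1 and 2, made with an sgRNA against *Renilla luciferase*. Clones with sgMTSS1_1, sgMTSS1_2, or sgMTSS1_3 gave 1 *MTSS1* knockout library per sgRNA, 3 in all. Per the supplementary methods, TF-1 cells were cultured in medium with GM-CSF. Each pool held 4 clones and was growing without added drug when RNA was taken. A replicate is thus a clone mixture, and no sgRNA was used in more than 1 knockout library.

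BAX and BAK, the products of *BAX* and *BAK1*, form the pores that release cytochrome c and start the caspase cascade. Anti-apoptotic members (BCL-2, BCL-XL encoded by *BCL2L1*, and MCL-1) hold them, and the BH3-only proteins that activate them, in a hydrophobic groove. BH3-only proteins differ in their partners: BIM (*BCL2L11*), PUMA (*BBC3*), and truncated BID bind all of these anti-apoptotic proteins, NOXA (*PMAIP1*) binds MCL-1, and BAD binds BCL-2 and BCL-XL. Erythroid cells are known for their need of BCL-XL, and myeloid progenitors and many AML cells for their need of MCL-1. The study asked how loss of *MTSS1* changes gene expression in cells whose drug-induced apoptosis it also measured, and this family is where many such signals meet.

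The feature all members share is the BH3 core, a leucine followed, after 3 residues, by a small residue (glycine, alanine, or serine) and an aspartate. The coding sequence of each member's canonical transcript in GENCODE release 44 (GRCh38) was searched for this core, with arginine, lysine, or alanine required after the leucine. Every member held exactly 1 match, while 9.07% of 20070 canonical coding sequences held at least 1. The pattern was written with these proteins in mind, so their matches describe it and do not test it. The 30 coding bases that begin at the leucine are shown for the members whose levels the text turns on, with the codons for leucine, the small residue, and aspartate in capitals.
MCL1: TTAcgacgggttGGGGATggcgtgcagcgc
BCL2L1: CTGagggaggcaGGCGACgagtttgaactg
BBC3: CTGcggcggatgGCGGACgacctcaacgca
PMAIP1: CTCaggagatttGGAGACaaactgaacttc
BID: CTCgcccaggtcGGGGACagcatggaccgt
BAX: CTCaagcgcatcGGGGACgaactggacagt
These stretches lie at chr1:150578865-150578894 in exon 1 of *MCL1*, chr20:31721922-31721951 in exon 2 of *BCL2L1*, chr19:47226579-47226608 in exon 3 of *BBC3*, and chr22:17739415-17739444 in exon 4 of *BID*, all on the minus strand. Those of *PMAIP1* (chr18:59902673-59902702, exon 2) and *BAX* (chr19:48955787-48955816, exon 3) are on the plus strand. Over these 30 bases, *MCL1* and *BCL2L1* shared 12 bases (40%), fewer than *BCL2* and *BCL2L1* (18 bases, 60%). *BAK1* with *BID* and *BBC3* with *BCL2L11* were the most alike pairs of members, with 21 shared bases (70%) each. The pattern that chose the stretches fixed some of the bases, so part of each identity was set in advance.

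Libraries were made with a 3′ kit, so a read marks the 3′ end of a transcript and the splice forms of *MCL1*, *BCL2L1*, or *BCL2L11* cannot be told apart. Levels are given as CPM, the counts of a gene relative to the TMM-scaled total of its library, and since 3′ reads do not grow with transcript length, CPM of different genes were compared without dividing by length. Total counts were between 2849979 and 3408827 in the control and between 5442639 and 8854899 in the knockout libraries, and 3 counts correspond to between 0.387 and 0.931 CPM. Every knockout library was deeper than both control libraries, so depth and genotype cannot be told apart. *MCL1* was also called after all libraries were thinned to the smallest total. Thinning evens the totals alone and leaves in place any other difference between libraries that came with depth. *MTSS1* itself was at 203 and 87.4 CPM in sgCtrl pools 1 and 2, while sgMTSS1_1, sgMTSS1_2, and sgMTSS1_3 had 103, 138, and 49.7 CPM, so the groups overlapped (log2-fold change −0.58, standard error (SE) 0.47, adjusted p = 0.494). sgMTSS1_1 and sgMTSS1_2 cut the first exon, away from the end that is read, so the mRNA level does not check these labels. Per the supplementary methods, the pooled clones of each *MTSS1* sgRNA had been checked by immunoblot for loss of the protein. All 11 markers fixed for TF-1 (among them *CD34*, *CD33*, *GATA1*, and *EPOR*) were counted in every library, and summed to between 862 and 1015 CPM in control and between 835 and 1170 CPM in knockout pools. Single markers were not all alike. *CD34* (131 and 112 CPM in control, and 213, 343, and 167 CPM in knockout pools), *KIT*, and *CSF2RB* were above both control pools in every knockout pool. *GATA1* (109 and 80.2 against 56.1, 62.3, and 74.7 CPM) was below both, and the groups overlapped for the others. Such orders were seen for 22.2% (above) and 19.2% (below) of tested genes. Of 15 markers of T, B, epithelial, fibroblast, and monocytic cells, 12 were in the table, and they summed to between 22.0 and 41.2 CPM in control and between 18.4 and 26.2 CPM in knockout pools, most of it from *KRT8*.

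Of the 10 members, *MCL1* rose in the knockout and the other 9 did not pass the test. A gene was called when edgeR's quasi-likelihood F-test gave a Benjamini-Hochberg adjusted p-value under 0.05 over 14391 tested genes and its log2-fold change was above 1 or below −1. At these thresholds 5.18% of all tested genes were called, 4.17% as higher and 1.01% as lower in the knockout. All 10 members passed the filter on low counts. Their median log2-fold change was −0.16, against −0.03 over all tested genes, and 6 of the 10 had an unadjusted p-value under 0.05, as did 23.3% of all tested genes. Every knockout pool lay above both control pools for *MCL1*, *BBC3*, *PMAIP1*, and *BID*, an order seen for 22.2% of tested genes. Every knockout pool lay below both control pools for *BAD* alone, an order seen for 19.2% of tested genes. In the other 5 members the groups overlapped. In such bulk RNA, a lower level cannot be told apart from fewer expressing cells.

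**Figure D1:**
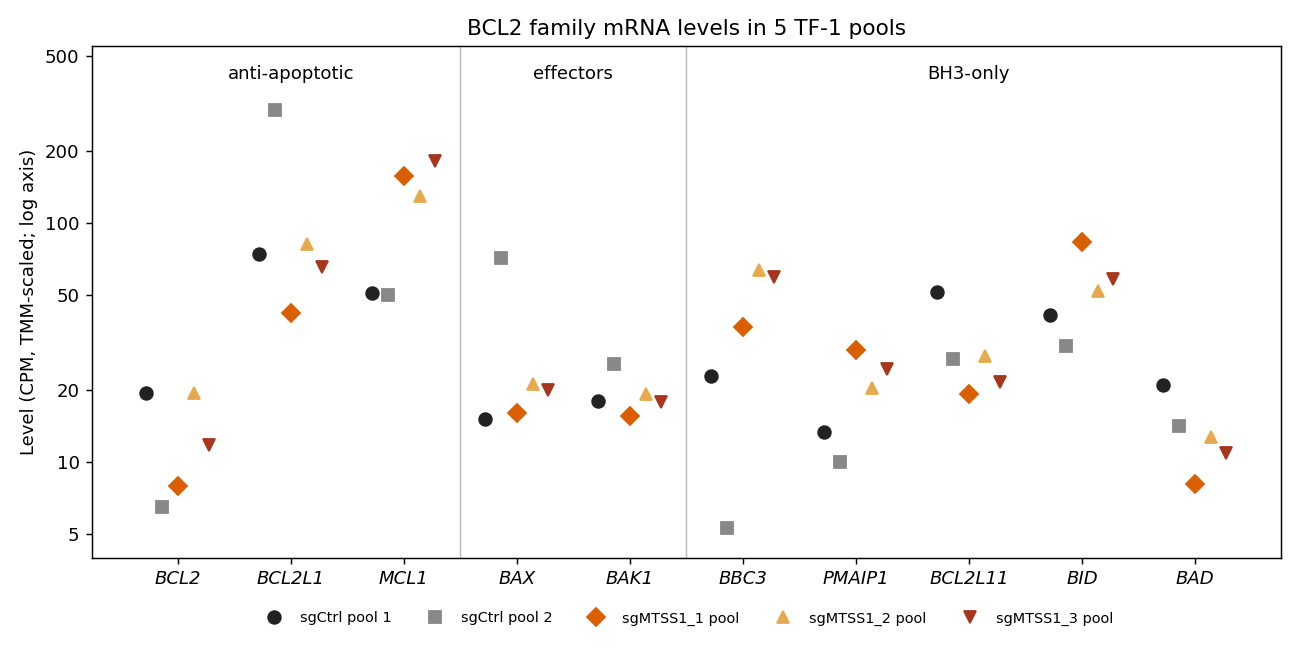
Level of each of the 10 BCL2 family genes (CPM, log axis) in the 5 pools, 1 point per library, grouped by role. The 3 knockout pools sit between 130 and 182 CPM for *MCL1*, above both control pools near 50 CPM, while sgCtrl pool 2 stands alone at 297 CPM for *BCL2L1* and at 71.7 CPM for *BAX*.

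Among the anti-apoptotic genes, *MCL1* (ENSG00000143384, chromosome 1, 150560895 to 150579738, minus strand) encodes a short-lived protein that guards BAK. It had 165 and 169 counts in sgCtrl pools 1 and 2, and 1216, 722, and 1052 counts in the sgMTSS1_1, sgMTSS1_2, and sgMTSS1_3 pools, which corresponds to 51.2, 50.04, 157, 130, and 182 CPM. Both control pools were thus close to each other, and the lowest knockout pool was far above them. Control pools averaged 50.6 ± 0.816 CPM (SD, n = 2) and knockout pools averaged 156 ± 26.2 CPM (SD, n = 3), a 3.08-fold rise (log2-fold change 1.62, SE 0.31, adjusted p = 0.0218, edgeR F-test). The log2-fold change stayed between 1.48 and 1.78 under all 13 alternatives tried, and the call was lost without the sgMTSS1_1 pool (adjusted p = 0.0683, edgeR F-test) or without the sgMTSS1_3 pool (adjusted p = 0.0813). The annotated end of *MCL1* overlaps *ADAMTSL4* on the opposite strand and *ADAMTSL4-AS1* on its own, which had at most 36 and 4 counts in any library. Over the 5 libraries, the tested genes whose centred log2 CPM were nearest to those of *MCL1* were *UBE2D3*, *ZNF557*, and *VMA21*, with root mean square differences of 0.07, 0.07, and 0.08.

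*BCL2L1* (ENSG00000171552, chromosome 20, 31664452 to 31723989, minus strand) was the most abundant member in both control pools. Its level was 74.2 and 297 CPM in sgCtrl pools 1 and 2, and 42.2, 81.7, and 65.4 CPM in the knockout pools. The sgMTSS1_2 pool was thus above sgCtrl pool 1, and the lower mean of the knockout (63.1 ± 19.9 CPM, SD, n = 3, against 186 ± 158 CPM, SD, n = 2) rested on sgCtrl pool 2. The log2-fold change was −1.56 (SE 0.52, adjusted p = 0.109, edgeR F-test) with all libraries. It was −0.21 (adjusted p = 0.781) without sgCtrl pool 2 and −2.23 (adjusted p = 0.0124) without sgCtrl pool 1, and DESeq2 called the gene with all libraries (−1.59, adjusted p = 0.0406). The level of *BCL2L1* differed 4.01-fold between the control pools, and only 3.13% of tested genes had a larger gap between them. The genes nearest to *BCL2L1* over the 5 libraries were *ACTB*, *ZBTB47*, and *NSMF*, with root mean square differences of 0.16, 0.17, and 0.18 on the log2 scale.

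*BCL2* (ENSG00000171791, chromosome 18, 63123346 to 63320128, minus strand), whose product is the target of BH3 mimetic drugs such as venetoclax, was a minor member of the group. It was at 19.5 and 6.51 CPM in sgCtrl pools 1 and 2, and at 7.997, 19.4, and 11.8 CPM in the knockout pools. The knockout pools fell within the span of the control pools, with means of 13.0 and 13.1 CPM in control and knockout (adjusted p = 0.998, edgeR F-test). With an SE of 0.53 for the log2-fold change of −0.00, differences of moderate size were not detectable in either direction.

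The composition of these anti-apoptotic counts can be read within each library, with no scaling between libraries. *MCL1* took 35.3% (95% Wilson interval 31.1 to 39.8) and 14.1% (12.3 to 16.2) of the summed counts of *BCL2*, *BCL2L1*, and *MCL1* in sgCtrl pools 1 and 2. It took 75.8% (73.6 to 77.8), 56.2% (53.5 to 58.9), and 70.2% (67.9 to 72.5) in the sgMTSS1_1, sgMTSS1_2, and sgMTSS1_3 pools. *BCL2L1* took 51.2% (46.7 to 55.7) and 84.0% (81.8 to 86.0) in the control pools, and 20.4% (18.5 to 22.4), 35.4% (32.8 to 38.1), and 25.2% (23.1 to 27.5) in the knockout pools. *BCL2L1* was therefore the largest of the 3 in both control pools and *MCL1* in all 3 knockout pools. For both genes the intervals of sgCtrl pools 1 and 2 did not meet each other either, so they do not measure the spread between pools. Shares of one sum are not independent: more *MCL1* counts lower the share of *BCL2L1*, whose own level overlapped between the groups. The mean share of *MCL1* was 24.7 ± 15.0% (SD, n = 2) in control and 67.4 ± 10.1% (SD, n = 3) in knockout pools, a difference of 42.7 percentage points that was 32.1 without sgCtrl pool 2 and 53.3 without sgCtrl pool 1. These intervals and the 3-count levels reflect counting error alone, because no use of molecular identifiers is stated and reads may not be independent molecules. Summed over the 3 genes, the level was 145 and 354 CPM in control and 207, 231, and 259 CPM in knockout pools, so the totals of the groups overlapped. The share of *BCL2* overlapped as well (13.5% and 1.84% in control, and 3.86%, 8.40%, and 4.54% in knockout pools). Only the shares of *MCL1* and *BCL2L1* did not.

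**Figure D2:**
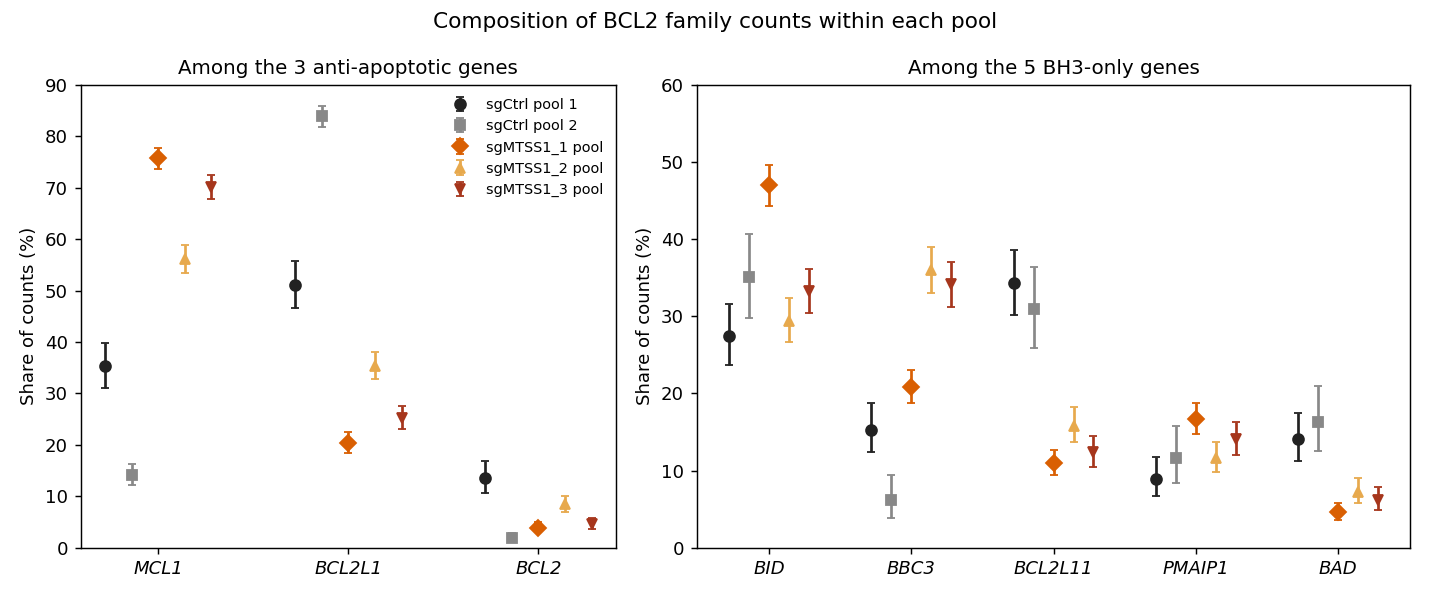
Share of counts (%) taken by each anti-apoptotic gene (left) and each BH3-only gene (right) within each pool, with 95% Wilson intervals for counting error. *MCL1* takes between 56.2% and 75.8% of the anti-apoptotic counts in the knockout pools and at most 35.3% in the control pools, and *BAD* and *BCL2L11* take smaller shares of the BH3-only counts in all knockout pools.

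Neither effector passed the test. *BAX* (ENSG00000087088, chromosome 19, 48954815 to 48961798, plus strand) was at 15.2 and 71.7 CPM in sgCtrl pools 1 and 2, and at 16.1, 21.2, and 20.1 CPM in the knockout pools. The knockout pools were close to sgCtrl pool 1, and sgCtrl pool 2 was far above all others, with a gap between the control pools exceeded by 2.13% of tested genes. The log2-fold change was −1.19 (SE 0.52, adjusted p = 0.209, edgeR F-test), turned to 0.35 (adjusted p = 0.608) without sgCtrl pool 2, and was −1.90 (adjusted p = 0.0126) without sgCtrl pool 1. *BAK1* (ENSG00000030110, chromosome 6, 33572547 to 33580293, minus strand) was at 17.997 and 25.8 CPM in control and 15.6, 19.2, and 17.8 CPM in knockout pools. It was the steadiest member over the knockout pools, and its groups overlapped (log2-fold change −0.32, SE 0.33, adjusted p = 0.600, edgeR F-test). *BAX* took 73.6% (95% Wilson interval 68.5 to 78.0) of the effector counts in sgCtrl pool 2, and between 45.8% and 52.97% in the other 4 pools.

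sgCtrl pool 2 thus had the highest *BCL2L1* and *BAX* and the lowest *BBC3* and *BCL2* of all pools. Between the control pools these 4 genes differed by 3.001-fold to 4.71-fold, while the gap was 1.91-fold or less for the other 6 members and 1.02-fold for *MCL1*. These are the members whose fold change depended most on which control pool was kept.

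**Figure D3:**
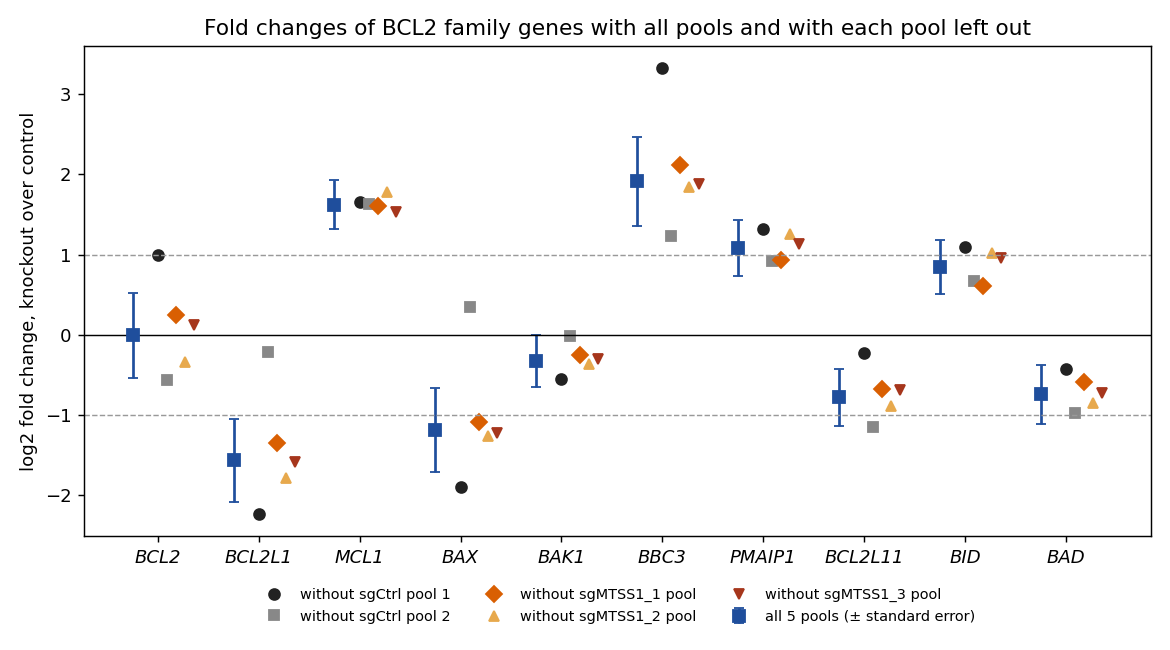
log2-fold change of each member, knockout over control, with all 5 pools (squares with bars for the standard error) and with each pool left out (other symbols). Dashed lines mark 1 and −1. *MCL1* stays between 1.54 and 1.78 whichever pool is left out, while *BAX* goes from −1.90 to 0.35 and *BCL2L1* from −2.23 to −0.21 with the choice of control pool.

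Of the 5 BH3-only genes, 3 were above both control pools in every knockout pool, as were 22.2% of all tested genes, and none was called. *BBC3* (ENSG00000105327, chromosome 19, 47220822 to 47232766, minus strand) encodes PUMA, which binds every anti-apoptotic member. It was at 23.0 and 5.33 CPM in sgCtrl pools 1 and 2, the latter from 18 counts, and at 36.9, 63.4, and 59.7 CPM in the knockout pools. The largest log2-fold change of the 10 members, 1.91 (SE 0.55), did not pass (adjusted p = 0.0778, edgeR F-test). It was 1.24 (adjusted p = 0.116) without sgCtrl pool 2 and 3.32 (adjusted p = 0.0111) without sgCtrl pool 1. DESeq2 called *BBC3* with all libraries (adjusted p = 0.00895).

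*PMAIP1* (ENSG00000141682, chromosome 18, 59899996 to 59904305, plus strand) encodes NOXA, which binds MCL-1 and speeds its breakdown. It was at 13.3 and 10.1 CPM in control and 29.5, 20.5, and 24.6 CPM in knockout pools, so the lowest knockout pool exceeded the highest control pool (2.12-fold, log2-fold change 1.09, SE 0.35, adjusted p = 0.103, edgeR F-test). Its counts were between 11.9% and 15.8% of the summed *PMAIP1* and *MCL1* counts in knockout pools and 20.7% (95% Wilson interval 15.7 to 26.7) and 16.7% (12.2 to 22.5) in control pools. Every knockout pool was thus below both control pools in this share, while the counting interval of sgCtrl pool 2 overlapped those of all knockout pools. That of sgCtrl pool 1 overlapped those of sgMTSS1_1 and sgMTSS1_2. *BID* (ENSG00000015475, chromosome 22, 17734138 to 17774770, minus strand), which caspase-8 cleaves to link death receptors with mitochondria, was at 41.3 and 30.5 CPM in control and 83.2, 51.9, and 58.1 CPM in knockout pools. All knockout pools were above both control pools, but the difference did not pass (log2-fold change 0.84, SE 0.34, adjusted p = 0.170, edgeR F-test).

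The other two BH3-only genes had lower means in the knockout. *BAD* (ENSG00000002330, chromosome 11, 64269830 to 64284704, minus strand), whose product binds BCL-2 and BCL-XL unless survival kinases phosphorylate it, was at 21.1 and 14.2 CPM in control and 8.13, 12.7, and 10.9 CPM in knockout pools (log2-fold change −0.74, SE 0.37, adjusted p = 0.261, edgeR F-test). *BCL2L11* (ENSG00000153094, chromosome 2, 111119378 to 111168444, plus strand), which encodes BIM, was at 51.5 and 26.9 CPM in control and 19.3, 27.8, and 21.6 CPM in knockout pools. The sgMTSS1_2 pool was just above sgCtrl pool 2, and the log2-fold change was −0.78 (SE 0.36, adjusted p = 0.227). *BAD* and *BCL2L11* overlap *GPR137* and *MIR4435-2HG* on the opposite strand, and *MIR4435-2HG* had between 351 and 1343 counts, more than *BCL2L11* in every library, so both levels are uncertain if strand was ignored in counting.

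Within the BH3-only counts, *BCL2L11* took 34.3% (95% Wilson interval 30.2 to 38.6) and 31.0% (25.9 to 36.4) in control pools, and between 10.9% and 15.8% in knockout pools. *BAD* took 14.05% and 16.3% in control and between 4.59% and 7.23% in knockout pools. Neither gene was called by its level, and the levels of *BCL2L11* overlapped between the groups. These shares also fall where others in the sum are higher, and *BBC3*, *PMAIP1*, and *BID* were higher in every knockout pool. *BBC3* took 15.3% and 6.12% in control and between 20.8% and 35.9% in knockout pools. Summed over the 5 genes, the level reached 150.2 and 87.1 CPM in the sgCtrl pools, below the 177, 176, and 175 CPM of the knockout pools.

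Ordered by mean level, the control pools had *BCL2L1*, *MCL1*, *BAX*, *BCL2L11*, and *BID* as the upper 5 members, of which *BCL2L1* lay above all the others. The ranges of *MCL1*, *BAX*, *BCL2L11*, and *BID* overlapped from each to the next, and *BID* lay above *BAK1*, the sixth. In the knockout pools, *MCL1* came first and stood apart from all other members, followed by *BID*, *BCL2L1*, and *BBC3*, whose levels overlapped one another. *PMAIP1* was last by its mean in control pools, within the ranges of *BCL2* and *BBC3*, and the fifth in knockout pools, where it overlapped *BCL2L11* and *BAX*. *BAD* was last in the knockout pools, overlapping *BCL2* above it.

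The wider machinery was described with 9 lists holding 90 other genes, of which 74 were tested. In the knockout 6 of these rose and 1 fell (9.46% called, against 5.18% of all tested genes), and their median log2-fold change was −0.07. Of the 6, 3 were PIM kinases from a single list. The lists were chosen with earlier results of these data known, so the difference between these shares tests nothing. Among other BCL2 family genes with a protective role, *BCL2L12* rose from 46.9 and 87.4 CPM to 184, 228, and 221 CPM (log2-fold change 1.65, SE 0.36, adjusted p = 0.0326, edgeR F-test), and *BCL2L2* was at 5.59 CPM or less in every pool. *BCL2L12* encodes an atypical member that is known to restrain caspases. It overlaps *IRF3* on the opposite strand, which had between 99 and 173 counts. *BCL2A1* was removed by the filter, with at most 3.10 CPM, and *BCL2L10* was not analysed here. Of 9 other pro-apoptotic family genes, 4 were tested and none was called. The smallest p-values were those of *BNIP3* and *BCL2L13*, with log2-fold changes of −0.61 and 0.28. *BMF* and *HRK*, which encode further BH3-only proteins, did not exceed 1.48 CPM in any pool.

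Downstream of the mitochondria, 14 genes of the apoptosome, the caspases, and the mitochondrial factors were tested, and *VDAC1* alone was called. *VDAC1*, the main channel of the outer mitochondrial membrane, fell from 235 and 194 CPM to 77.9, 92.3, and 86.0 CPM (log2-fold change −1.33, SE 0.28, adjusted p = 0.0286, edgeR F-test). It has 13 annotated pseudogenes, and reads with more than 1 place of origin had been removed, so its level is uncertain. Among 4 tested inhibitors of apoptosis proteins, *BIRC5* (survivin, which also serves in mitosis) rose from 101 and 52.7 CPM to 295, 227, and 208 CPM (log2-fold change 1.66, SE 0.38, adjusted p = 0.0380). The other 3 tested genes of this list, *XIAP*, *BIRC2*, and *BIRC6*, did not pass (log2-fold changes of −0.88, 0.44, and −0.73). Every knockout pool was below both control pools for *XIAP* and *BIRC6*, and above both for *BIRC2*. These orders were seen for 19.2% and 22.2% of all tested genes. None of 7 tested genes of death receptors and adaptors was called, and the smallest p-values there were those of *TNFRSF1A* (log2-fold change −0.41) and *TNFRSF10A* (−0.60).

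Regulators of the members were described in the same way. The largest rises were those of 2 PIM kinases, which phosphorylate BAD: *PIM2* was at 54.3 and 81.7 CPM in control and 725, 643, and 799 CPM in knockout pools, and *PIM3* at 18.3 and 15.7 against 180, 244, and 275 CPM (adjusted p = 0.00457 for each, edgeR F-test). *PIM1* rose with a log2-fold change of 1.94 (SE 0.42, adjusted p = 0.0332), and the other 12 tested genes of this list, AKT and RSK kinases and 14-3-3 proteins among them, were not called. Of 9 tested genes that control the stability of MCL-1, *MARCHF5*, a mitochondrial ubiquitin ligase that acts on MCL-1 and NOXA, rose from 14.6 and 8.59 CPM to 66.8, 59.6, and 52.4 CPM (log2-fold change 2.36, SE 0.36, adjusted p = 0.0115). The other 8 did not pass. None of 7 transcription factors of *BCL2L11*, *BBC3*, and *PMAIP1* was called, with *E2F1* (−0.48) and *JUN* (0.31) having the smallest p-values.

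Of the 7 called genes of these lists, *PIM2* and *PIM3* were called under all 13 alternatives. The other 5 were not called without the sgMTSS1_1 pool. *BCL2L12*, *VDAC1*, and *BIRC5* were also not called without sgMTSS1_2 or without sgMTSS1_3, *PIM1* without sgMTSS1_3, and *PIM1* and *BIRC5* without sgCtrl pool 2. The highest adjusted p over the 13 alternatives was 0.105 for *BCL2L12*, 0.133 for *VDAC1*, 0.113 for *BIRC5*, 0.101 for *PIM1*, and 0.0561 for *MARCHF5*, against 0.0282 for *PIM2* and 0.0274 for *PIM3*.

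**Figure D4:**
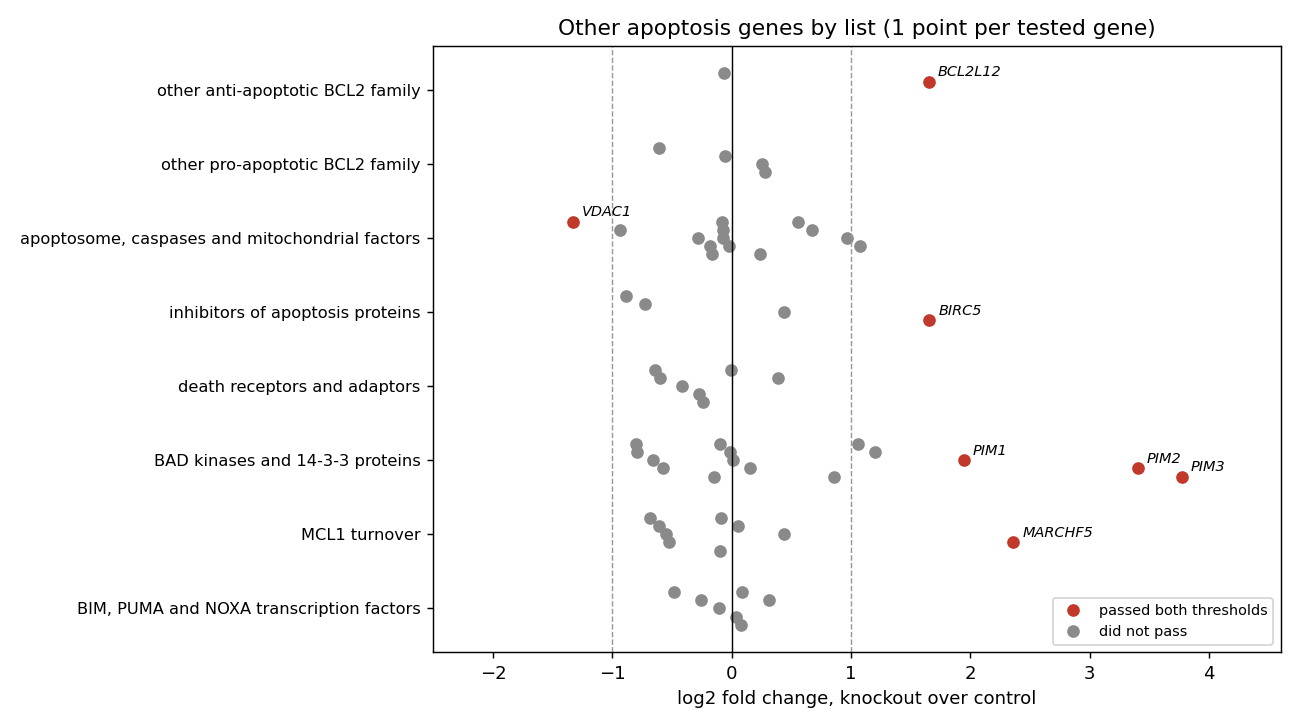
log2-fold change, knockout over control, of the 62 tested genes of 8 apoptosis lists, 1 point per gene and 1 row per list, with dashed lines at 1 and −1. The 7 named points passed both thresholds, and the grey points, most of them between −1 and 1, did not.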

How the data were processed

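RNA-seq counts of 2 control and 3 *MTSS1* knockout pools were analysed. Per the supplementary methods, the authors trimmed QuantSeq 3′ reads with BBDuk, aligned them to GRCh38 with HISAT2 2.1.0, and removed multi-mapping reads with SAMtools 1.10. They deposited raw counts per gene, without normalization. The counting program, annotation release, and use of strand are not given in the sources used here. All 5 count columns were used. sgCtrl pool 3 and the sgMTSS1_4 pool, which the authors dropped as outliers, were not analysed here.

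Counts were tested in R 4.3.3 with edgeR 4.0.16 (filterByExpr, minimum count 10, TMM, quasi-likelihood F-test of knockout against control, Benjamini-Hochberg adjustment over 14391 genes). CPM were computed from total counts and TMM factors, and 1 was added before taking log2 for centred profiles and gaps between pools. Library totals differed between groups, and thinning to the smallest total was an alternative. Others were DESeq2 1.42.0, limma-voom (limma 3.58.1), other scalings and filters, a block for the pool number, no fold threshold, and each library left out. Symbols and positions come from GENCODE 44, matched for 27211 genes. Python 3.11.15 summarised and plotted the values. The scripts were tested on counts simulated with the library sizes of these data. There edgeR called 64% of 200 genes changed 4-fold, so a gene that was not called may still differ.

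Members and lists were chosen with earlier results of these data known. Named genes are the members, *MTSS1*, the called genes of each list (or the 2 with the smallest p), and the 3 genes nearest to *MCL1* and to *BCL2L1*. A few others (*BCL2L2*, *BCL2A1*, *BMF*, *HRK*, *XIAP*, *BIRC2*, *BIRC6*, *KRT8*, *KIT*, *CSF2RB*, and overlapping genes) were added after their values were seen. Of the 9 lists, 1 enters the totals only and is not reported here. Each knockout pool carried its own sgRNA, while the 2 sgCtrl pools shared 1. Nothing says that clones within a pool, or those of the 2 sgCtrl pools, came from separate transductions. The p-values thus measure the spread between these pools, which includes a difference in sgRNA only in the knockout.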

Additional observations from a re-analysis of the deposited data

How the results depend on the processing

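Of the 10 members, *BAK1*, *PMAIP1*, *BCL2L11*, *BID*, and *BAD* kept their direction and were not called under any of 13 alternatives. *MCL1* kept its direction in all and its call in 11, with log2-fold changes between 1.54 and 1.78 when 1 library was left out. With 1 library left out, the other ranges were −2.23 to −0.21 for *BCL2L1*, 1.24 to 3.32 for *BBC3*, −1.90 to 0.35 for *BAX*, and −0.57 to 0.9995 for *BCL2*. *BCL2* was at 0.0845 in limma-voom, 0.14 with no filter on low counts, 0.0835 with at least 10 counts in every library, and 0.0847 with the replicate block, against −0.00 in the test as reported. *BCL2L1* passed in DESeq2 (−1.59) and with the replicate block (−1.35), and *BBC3* in DESeq2 (1.91), with no filter (2.06), and with the replicate block (2.01). The number of members called was 3 in DESeq2, 2 with no filter, 3 with the replicate block, and 0 to 4 with 1 library left out. Over all genes, 745 were called, 1343 in DESeq2, 1374 with no filter, and 111 to 1349 with 1 library left out; of the wider lists, 2 to 8 genes were called with 1 library left out. Where control pool 1 or 2 was left out, the lone control was assumed to vary like the knockout pools. Except where fewer libraries or more genes were tested by construction, the cause of these changes was not tested.

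Pool numbers 1 and 2 occur in both groups, but nothing says that pools of one number were handled together, and number 3 occurs in the knockout only. Over the 14391 tested genes, differences between sgCtrl pools 1 and 2 were set against those between knockout pools, and Pearson's r across genes, which are not independent replicates, was 0.18 for sgMTSS1_1 minus sgMTSS1_2, 0.20 for sgMTSS1_1 minus sgMTSS1_3, and 0.01 for sgMTSS1_2 minus sgMTSS1_3. The replicate block raised the number of called genes to 1094. In that fit sgMTSS1_3 was alone in its block, so the fold changes rested on pools 1 and 2 of each group. With library size as the only scaling, the median log2-fold change over tested genes shifted by −0.14, and that of *MCL1* was 1.48. Depth limits the lowest members most: *BBC3* rests on 18 counts and *BCL2* on 22 in sgCtrl pool 2.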
